A study of Mus musculus with 6 samples.

Results

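The MHC class II genes were followed through 6 mouse tumors, of which 3 were controls and 3 belonged to the IFN-γ stimulation group. The 10 members were the rows of the count table with the symbols H2-Aa, H2-Ab1, H2-Eb1, H2-DMa, H2-DMb1, H2-DMb2, H2-Oa, H2-Ob, Cd74 and Ciita. They are 10 of the 55487 genes listed, each symbol matched 1 row, and all 10 were among the 15114 genes with enough counts to be tested.

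MHC class II molecules are pairs of an alpha and a beta chain that display peptides from endosomes to CD4+ T cells. Dendritic cells, macrophages and B cells carry them constitutively or after activation, and IFN-γ is the classical inducer in other cell types. The pairs are built in the endoplasmic reticulum around the invariant chain, the Cd74 product, which is degraded in endosomes, where the DM molecule exchanges its remnant for peptide and the DO molecule restrains DM. The coactivator encoded by Ciita does not bind DNA itself but docks on factors assembled at the X and Y boxes of class II promoters.

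The tumors were subcutaneous and grew from CT26.WT cells, a colon carcinoma line of BALB/c origin, in immunocompetent male BALB/c mice bought at 4 weeks of age. Mice of the IFN-γ group were dosed by tail vein at intervals of 48 h with 100 µL of an IFN-γ solution of 100 ng/ml, and those of the control group were given PBS. Each library is 1 tumor, and its RNA is from the whole tissue, so the cells of the host and those of the implanted line were read together. Fewer cells of a type and less RNA per cell cannot be told apart in such samples. BALB/c mice carry the d haplotype of the MHC and express both the I-A pair (H2-Aa with H2-Ab1) and the I-E pair (H2-Ea with H2-Eb1), whereas the reference genome is of C57BL/6J, a strain without a functional H2-Ea. How the strain difference affects the counts of these polymorphic genes was not tested.

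All members except Ciita and Cd74 lie in the MHC region of chromosome 17 in the GRCm38 build. From the lowest coordinate on, H2-Oa is at chr17:34092340-34095234, H2-DMa at chr17:34119541-34139101, H2-DMb2 at chr17:34143307-34151555, H2-DMb1 at chr17:34153072-34160230 and H2-Ob at chr17:34238903-34254414. The classical genes follow, with H2-Ab1 at chr17:34257689-34269419, H2-Aa at chr17:34282744-34287823 and H2-Eb1 at chr17:34305867-34316674. H2-Aa is on the minus strand and the others are on the plus strand. Ciita is at chr16:10480059-10528418 on the plus strand, and the position of Cd74 is given with its values. The values below are sums over the exons of a whole gene, and all 10 are annotated as protein coding.

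Promoters of chromosome 17 members are shown because the X and Y boxes are the elements through which Ciita acts on them. RefSeq promoter windows of 300 bases, from 250 before to 50 after a start, were held for 7 members, with 2 starts for H2-DMa. H2-Ab1, also on chromosome 17, had no usable window and was not searched. The runs printed here cover the bases from 150 to 21 before the start, read 5′ to 3′ along the gene in GRCm38.p6. Capitals mark the Y box core TGATTGG and, where it stood 10 to 40 bases ahead of that core on the same strand, the X box core GNAAC. They are reference sequence of C57BL/6J, not of the tumors.
H2-Aa promoter, chr17:34287844-34287973, minus strand: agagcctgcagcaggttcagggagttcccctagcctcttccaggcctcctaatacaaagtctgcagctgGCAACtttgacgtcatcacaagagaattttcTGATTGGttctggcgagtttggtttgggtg
H2-Eb1 promoter, chr17:34305717-34305846, plus strand: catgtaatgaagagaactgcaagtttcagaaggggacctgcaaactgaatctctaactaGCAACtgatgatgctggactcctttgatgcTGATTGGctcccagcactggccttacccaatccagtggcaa
H2-DMb1 promoter, chr17:34153041-34153170, plus strand: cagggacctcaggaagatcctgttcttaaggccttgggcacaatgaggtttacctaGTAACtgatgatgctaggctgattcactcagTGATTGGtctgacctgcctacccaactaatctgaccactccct
H2-DMb2 promoter, chr17:34145099-34145228, plus strand: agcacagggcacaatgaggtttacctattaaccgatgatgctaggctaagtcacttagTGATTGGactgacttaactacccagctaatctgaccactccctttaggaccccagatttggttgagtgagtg
H2-Oa promoter, chr17:34092229-34092358, plus strand: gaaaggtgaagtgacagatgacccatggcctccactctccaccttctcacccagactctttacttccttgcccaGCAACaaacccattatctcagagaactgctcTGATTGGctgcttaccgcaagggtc
H2-Ob promoter, chr17:34238755-34238884, plus strand: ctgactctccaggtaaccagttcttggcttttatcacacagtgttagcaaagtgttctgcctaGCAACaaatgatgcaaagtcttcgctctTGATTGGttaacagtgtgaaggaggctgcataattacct
H2-DMa promoter, chr17:34122682-34122811, plus strand: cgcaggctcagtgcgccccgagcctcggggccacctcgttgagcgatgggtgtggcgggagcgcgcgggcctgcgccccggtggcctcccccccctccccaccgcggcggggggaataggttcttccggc
Both strands of each whole window were searched, with motif letters that were chosen after the sequences had been seen. The Y core was found in 6 of the 8 member windows (75%), against 7.82% of all 32851 promoter windows. The X core followed by the Y core was found in 5 of the 8 (62.5%), against 0.828% of all windows. The gap between both cores was 26 bases in H2-Aa, H2-DMb1 and H2-Oa, 25 bases in H2-Eb1 and 23 bases in H2-Ob. H2-DMb2 held the Y core without the X core letters ahead of it, and neither H2-DMa window held these letters. Both H2-DMa windows and the H2-DMb2 window lie within the annotated span of their gene, and no other start of either gene was searched. Whether H2-DMa or H2-DMb2 has the missing cores elsewhere was thus not tested. A match of letters is a description of the sequence and says nothing about whether a factor was bound in these tumors.

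**Figure D1:**
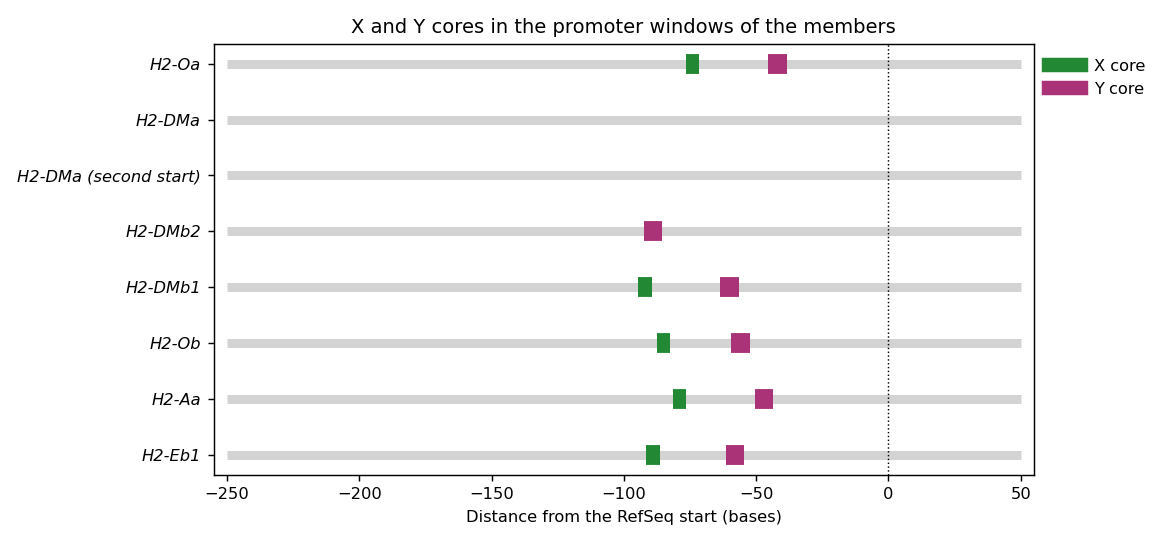
Positions of the X core and the Y core in the member promoter windows, in bases from the transcription start (x axis) for each gene (y axis). The cores lie within 100 bases before the start, with the X core farther from it than the Y core, and neither of the H2-DMa windows searched has one.

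The 6 libraries held 15759300 to 17559680 counts on genes, so a count of 3, taken as the limit that 0 counts allow, is worth 0.169 to 0.188 CPM (counts scaled to the size of the library) and covers counting error only. Pearson's r of log2 CPM across genes was 0.980 to 0.993 for pairs of libraries. It was 0.993 between IFN-γ tumors 1 and 2. IFN-γ tumor 3 had 0.985 and 0.982 with these and 0.989, 0.985 and 0.985 with control tumors 1, 2 and 3. Across genes it was thus no nearer to its own group than to the controls, and nearest to control tumor 1. IFN-γ tumor 3 also stood apart in the genes of skin keratinocytes, with 537 counts of Krt14 and 266 of Krt5. The other tumors had 3 to 62 and 0 to 48. Results with and without IFN-γ tumor 3 are given below. Of the markers of colon epithelium, several were scarce in these CT26.WT tumors, with Cdx2 at 0 counts in every tumor, Epcam at 1 to 15 and Vil1 at 0 to 5, while Krt18 had 105 to 184, Cdh1 22 to 43 and Krt8 3 to 211. Nothing in the labels says whether the tumors of a group were grown or sequenced apart, so the p-values measure the spread between these tumors.

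The classical chains, which hold the peptide at the cell surface, were compared first. H2-Aa, the I-A alpha chain, was at 40.7, 69.5 and 72.9 CPM in control tumors 1, 2 and 3, and in the IFN-γ group tumors 1, 2 and 3 had 136, 153 and 76.0 CPM. The groups did not overlap, but IFN-γ tumor 3 was close to the upper controls. The means were 61.0 ± 17.7 and 122 ± 40.6 CPM (SD, n = 3 each). Its log2 fold change was 0.996 (SE 0.28, adjusted p = 0.314, edgeR's quasi-likelihood test).

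H2-Ab1, the I-A beta chain, was at 28.1, 49.9 and 45.8 CPM in the control tumors and at 98.7, 116 and 58.0 CPM in the IFN-γ tumors. Here too every IFN-γ tumor was above every control, with IFN-γ tumor 3 the nearest to them. Its log2 fold change reached 1.14 (SE 0.28, adjusted p = 0.257, edgeR). H2-Eb1, the I-E beta chain, was at 142, 313 and 272 CPM in the control tumors and at 550, 668 and 306 CPM in the IFN-γ tumors. These groups overlapped, since IFN-γ tumor 3 was below control tumor 2. The log2 fold change of H2-Eb1 was 1.07 (SE 0.33, adjusted p = 0.355, edgeR).

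H2-Ea, the I-E alpha chain, is not a member but is the partner of H2-Eb1. The annotation types it as a polymorphic pseudogene, as it is in the reference strain, and in these BALB/c tumors it was at 188, 438 and 376 CPM in the control group and at 858, 980 and 484 CPM in the IFN-γ group. It was thus read at a high level in every tumor, and the groups did not overlap. Its log2 fold change was 1.21 (SE 0.34, adjusted p = 0.300, edgeR). H2-Eb2, a further beta chain locus, had 0 to 3 counts per tumor and was not tested.

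Cd74, which encodes the invariant chain and lies at chr18:60803848-60812652 on the plus strand (GRCm38), was the most abundant member. Its level was 405, 854 and 735 CPM in the control tumors and 1517, 1759.7 and 887 CPM in the IFN-γ tumors. The groups did not overlap, although control tumor 2 and IFN-γ tumor 3 were near each other. The means were 665 ± 232 and 1388 ± 451 CPM (SD, n = 3 each), with a log2 fold change of 1.06 (SE 0.31, adjusted p = 0.321, edgeR).

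The DM molecule is a pair of H2-DMa with the product of H2-DMb1 or H2-DMb2. H2-DMa was at 39.0, 66.4 and 66.7 CPM in the control tumors and at 113, 134 and 68.0 CPM in the IFN-γ tumors. IFN-γ tumor 3 was above the highest control by little more than 1 CPM. In edgeR the log2 fold change was 0.87 (SE 0.27, adjusted p = 0.352, edgeR). H2-DMa shares 360 exon bases with Brd2 on the other strand, and Brd2 had 5434 to 6444 counts per tumor against 624 to 2196 of H2-DMa. The strand setting of the counting is not given in the sources used here, so the share of reads from the overlap is uncertain.

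H2-DMb1 was at 4.13, 6.43 and 5.43 CPM in the control tumors and at 10.8, 13.99 and 7.98 CPM in the IFN-γ tumors. H2-DMb2 was at 13.9, 6.65 and 17.7 CPM in the control tumors and at 37.7, 46.1 and 20.0 CPM in the IFN-γ tumors. In both, every IFN-γ tumor was above every control tumor. The log2 fold changes were 1.03 for H2-DMb1 (SE 0.25, adjusted p = 0.257, edgeR) and 1.44 for H2-DMb2 (SE 0.38, adjusted p = 0.288, edgeR), the latter the highest among the members. These genes are neighbors and close copies, so that reads could have been split between them. Control tumor 2 had a ratio of H2-DMb2 to H2-DMb1 of 1.04, whereas it ran from 2.51 to 3.49 in the other 5 tumors.

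The DO molecule, a pair of H2-Oa and H2-Ob known mainly from B cells and some dendritic cells, was read at the lowest levels. H2-Oa was at 0.688, 0.507 and 0.743 CPM in the control tumors and at 1.68, 1.28 and 1.86 CPM in the IFN-γ tumors. These levels rest on 9 to 13 counts per control tumor and 21 to 30 counts per IFN-γ tumor. The groups did not overlap, and here IFN-γ tumor 3 was the highest of all. H2-Oa had a log2 fold change of 1.31 (SE 0.33, adjusted p = 0.267, edgeR). The antisense gene BC051537 shares 321 exon bases with H2-Oa and had at most 1 count in any tumor.

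H2-Ob was at 0.813, 2.48 and 1.66 CPM in the control tumors and at 3.02, 2.08 and 1.24 CPM in the IFN-γ tumors. These groups overlapped in part, with IFN-γ tumor 1 above every control, control tumor 1 below every IFN-γ tumor, and IFN-γ tumor 3 below control tumors 2 and 3. Its log2 fold change of 0.35 was smaller than its error (SE 0.46, adjusted p = 0.850, edgeR). Levels of H2-Ob rested on 13 to 52 counts per tumor.

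Ciita, the coactivator of all the others, was at 17.5, 40.4 and 29.7 CPM in the control tumors and at 78.8, 84.5 and 27.0 CPM in the IFN-γ tumors. IFN-γ tumors 1 and 2 were above every control, and IFN-γ tumor 3 was between control tumors 1 and 3, at 0.923 of the control mean. The means were 29.2 ± 11.5 and 63.4 ± 31.7 CPM (SD, n = 3 each). Its log2 fold change was 1.12 (SE 0.42, adjusted p = 0.420, edgeR). The exons of Ciita overlap those of Dexi on the other strand by 329 of 9535 bases, and Dexi had 185 to 275 counts per tumor against 280 to 1384 of Ciita.

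**Figure D2:**
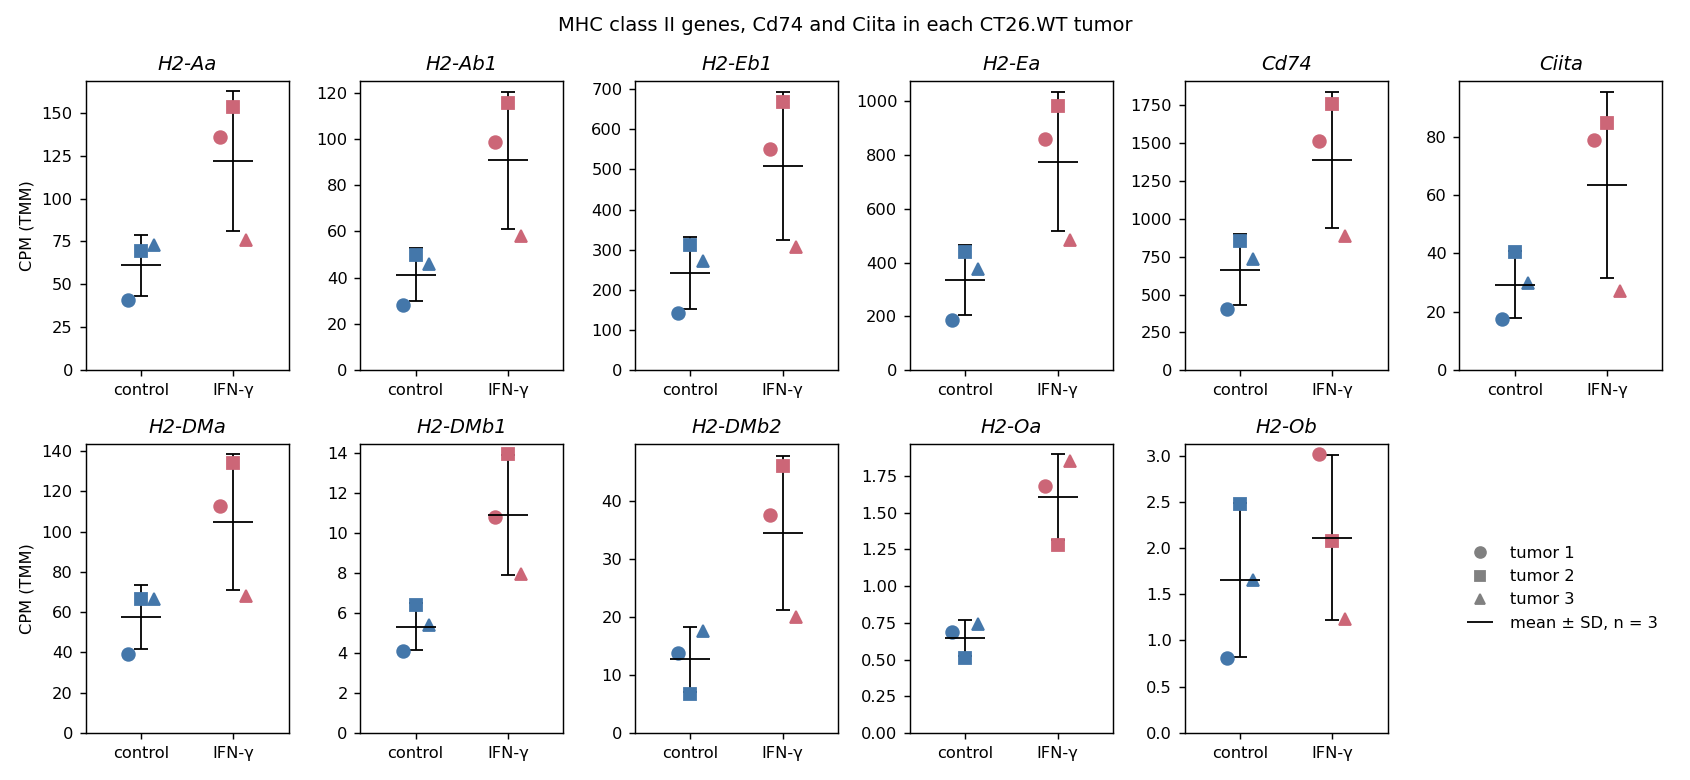
Level of each member in each tumor, in CPM on linear axes that start at 0, with H2-Ea added. Points are tumors, and lines are the group mean ± SD (n = 3). IFN-γ tumors 1 and 2 lie above all controls for every member except H2-Ob, and IFN-γ tumor 3 lies lower than both of them for every member except H2-Oa.

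With all 6 tumors, 0 of the 10 members passed an adjusted p of 0.05 in edgeR, where 0.0794% of all genes tested were called higher. At an unadjusted p under 0.05, 9 of the 10 were higher, against 5.74% of all genes. The groups did not overlap, with the IFN-γ tumors higher, for 7 of the 10, against 7.62% of all genes. All 10 log2 fold changes were above 0, with a median of 1.07 over the members and of 0.0015 over all genes tested. DESeq2 called 1 member, H2-DMb1, against 0.827% of all genes, and limma-voom called 0. With no filter on low counts edgeR called 7, against 0.558% of all genes.

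Without IFN-γ tumor 3, 8 of the 10 members passed the threshold, all higher in the IFN-γ group, where 2.46% of all genes were called higher. They were H2-Aa, H2-Ab1, H2-Eb1, H2-DMa, H2-DMb1, H2-DMb2, Cd74 and Ciita, with adjusted p-values from 0.016 to 0.039 in edgeR. Their log2 fold changes ran from 1.09 (SE 0.20) for H2-DMa to 1.71 (SE 0.30) for H2-DMb2. Ciita moved from 1.12 to 1.47 and Cd74 from 1.06 to 1.29. H2-Oa had a log2 fold change of 1.19 (SE 0.40, adjusted p = 0.175, edgeR) and H2-Ob of 0.61 (SE 0.44, adjusted p = 0.569, edgeR), and both missed the threshold. The groups did not overlap for 9 of the 10, against 18.1% of all genes, and the median of the members was 1.26 against -0.016 for all genes. No other tumor, when left out, brought any member past the threshold.

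**Figure D3:**
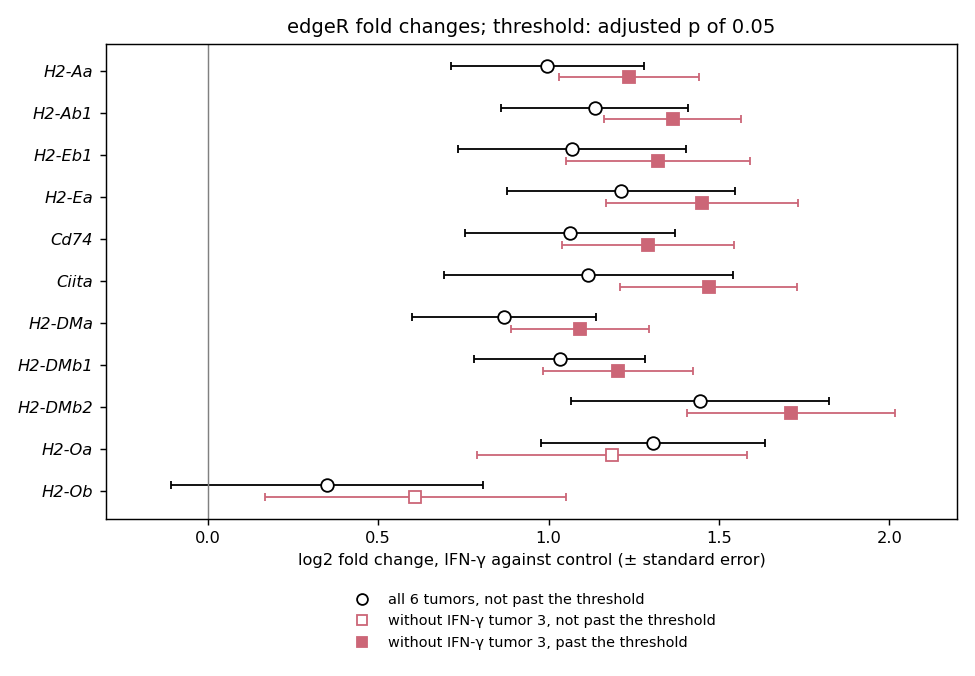
Log2 fold change of each member, IFN-γ over control, and of H2-Ea, with its standard error as a bar, from all 6 tumors and without IFN-γ tumor 3. The fold changes lie above 0 in both fits, and those of H2-Ob have errors about as large as the changes.

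The members moved together from tumor to tumor. IFN-γ tumor 2 was the highest for 8 of the 10, and the exceptions were H2-Ob, highest in IFN-γ tumor 1, and H2-Oa, highest in IFN-γ tumor 3. IFN-γ tumor 1 was second for 9. Control tumor 1 was the lowest for 8, and control tumor 2 was the lowest for H2-DMb2 and H2-Oa. The median log2 ratio of the members to their control mean was -0.57, 0.27 and 0.16 in control tumors 1, 2 and 3 and 1.19, 1.40 and 0.38 in IFN-γ tumors 1, 2 and 3. IFN-γ tumor 3 was thus nearer to control tumor 2 than to the other IFN-γ tumors.

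Summed over the members, the level was 692, 1409 and 1248 CPM in the control tumors and 2547, 2979 and 1453 CPM in the IFN-γ tumors. The highest tumor was 4.30 times the lowest. Of all counts on genes, the members took from 0.0702% in control tumor 1 to 0.293% in IFN-γ tumor 2. Cd74 made up 58.6% to 61.0% of the summed members, and H2-Aa, H2-Ab1 and H2-Eb1 together 30.3% to 31.5%. These shares varied little, while the sum varied several-fold.

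Levels of different genes were compared per kilobase of exon. In the control group Cd74 was at 396 ± 138 CPM per kilobase, H2-Ea at 322 ± 126 and H2-Eb1 at 125 ± 46.0 (SD, n = 3). This order held within each of the 6 tumors, although the control ranges of Cd74 and H2-Ea overlapped. H2-DMa, H2-Ab1 and H2-Aa followed at 16.6 ± 4.62, 16.1 ± 4.51 and 16.1 ± 4.65 CPM per kilobase, and their order changed between the control tumors. The mean of H2-Eb1 was thus 7.75 times that of H2-Ab1 per kilobase. These polymorphic genes were counted on the reference of another strain, and the lengths join all annotated exons of a gene. How far either shifts the order of the genes here and below was not tested.

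H2-DMb2 was next at 7.29 ± 3.20 CPM per kilobase in the control group. H2-DMb1 and Ciita lay at 3.17 ± 0.686 and 3.06 ± 1.20, and their order changed between the control tumors. H2-Oa and H2-Ob closed the order at 0.459 ± 0.0875 and 0.307 ± 0.155, with overlapping ranges. In the IFN-γ group the ends of the order were the same, from Cd74 at 827 ± 268 and H2-Ea at 747 ± 249 CPM per kilobase to H2-Oa at 1.14 ± 0.209 and H2-Ob at 0.392 ± 0.166. Between them H2-Ab1, H2-Aa and H2-DMa had means of 35.3, 32.1 and 30.4 CPM per kilobase. Their ranges overlapped, but this order held within each IFN-γ tumor.

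**Figure D4:**
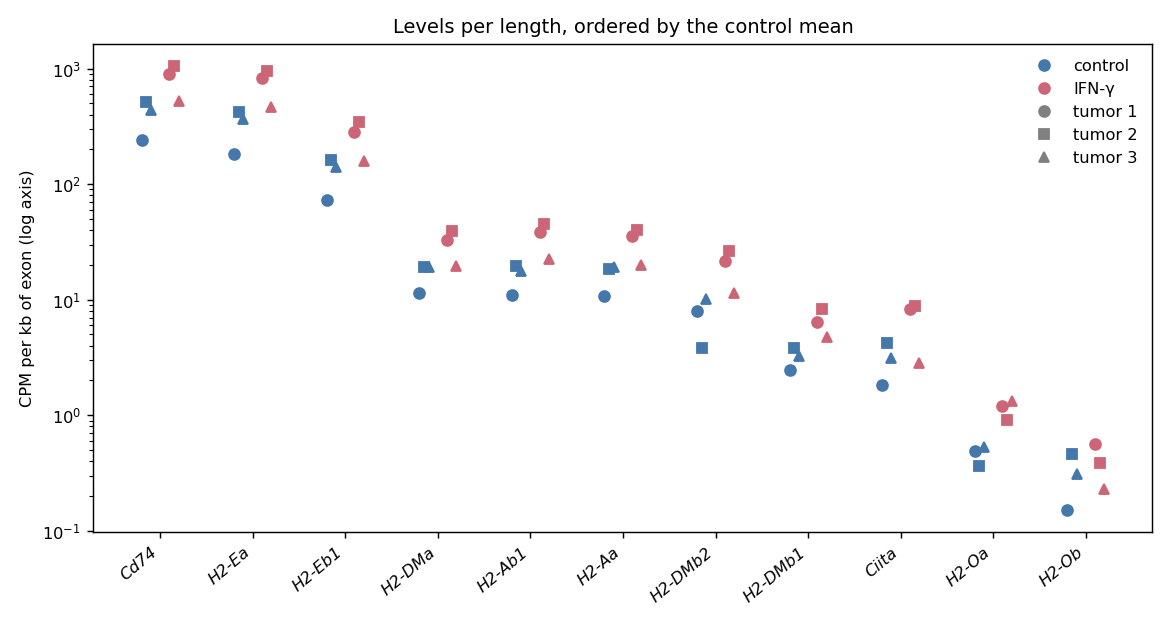
Level of each member and of H2-Ea in each tumor (points), in CPM per kilobase of exon on a log axis, ordered by the control mean. Cd74, H2-Ea and H2-Eb1 stand highest and H2-Oa and H2-Ob lowest in both groups.

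Ratios between members ask whether the parts of the pathway kept their proportions in each tumor. Cd74 over the sum of H2-Aa, H2-Ab1 and H2-Eb1 was 1.93, 1.98 and 1.88 in the control tumors and 1.93, 1.88 and 2.01 in the IFN-γ tumors. The log2 difference was 0.011 (p = 0.8, two-sided exact permutation test), where 3 against 3 tumors cannot give a p below 0.1. Ciita over the other members was 0.0260, 0.0295 and 0.0244 in the control tumors and 0.0319, 0.0292 and 0.0189 in the IFN-γ tumors. IFN-γ tumor 1 was thus above every control and IFN-γ tumor 3 below every control. The log2 difference in this ratio between the groups was -0.028 (p = 0.9, exact permutation test). The sum of H2-Oa and H2-Ob over the sum of the DM genes had a log2 difference of -0.23 (p = 0.6, exact permutation test), and without IFN-γ tumor 2 it was 0.041. The ranges of these 3 ratios overlapped between the groups.

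H2-Aa over H2-Ab1 was 1.45, 1.39 and 1.59 in the control tumors and 1.38, 1.33 and 1.31 in the IFN-γ tumors. Each IFN-γ tumor was below each control, with a log2 difference of -0.14 (p = 0.1, exact permutation test). H2-Ea over H2-Eb1 was 1.33, 1.40 and 1.38 in the control tumors and 1.56, 1.47 and 1.58 in the IFN-γ tumors. Here each IFN-γ tumor was above each control, with a log2 difference of 0.17 (p = 0.1, exact permutation test). The p of 0.1 is the smallest the test can give, so neither ratio can pass a threshold of 0.05 in this design.

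The genes around the members were examined in lists written by hand. For the counts in these and the marker lists, 5.74% of all genes tested were higher at an unadjusted p under 0.05 with all 6 tumors. Without IFN-γ tumor 3, 2.46% of all genes were called higher in edgeR. The complex that assembles at the X and Y boxes was represented by 10 genes, among them Rfx5 of the X box complex and Nfya, the DNA-binding subunit of the Y box factor NF-Y. With all 6 tumors 0 of the 10 passed the threshold in edgeR and 0 had an unadjusted p under 0.05. Their median log2 fold change was 0.034, and without IFN-γ tumor 3 it was 0.039, again with 0 calls. Rfx5 had a log2 fold change of 0.17 (SE 0.18) with all 6 tumors and of 0.32 (SE 0.15, adjusted p = 0.348, edgeR) without IFN-γ tumor 3. Nfya had -0.10 (SE 0.08) and -0.15 (SE 0.09). The most abundant of the list, the acetyltransferase gene Ep300, was at 108 to 140.1 CPM in the 6 tumors, with overlapping groups.

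Receptor, kinase and transcription factor genes upstream of Ciita were listed as 13 genes. With all 6 tumors 0 passed the threshold in edgeR and 5 had an unadjusted p under 0.05, all higher, with a median log2 fold change of 0.20. Without IFN-γ tumor 3, 3 of the 13 were called higher and the median was 0.28. Among them, Irf1, a transcription factor induced by IFN-γ, had a log2 fold change of 0.60 (SE 0.22) with all 6 tumors and of 0.80 (SE 0.15, adjusted p = 0.030, edgeR) without IFN-γ tumor 3. Spi1, the myeloid factor PU.1, had 0.35 (SE 0.15) and 0.50 (SE 0.09, adjusted p = 0.025, edgeR). The feedback inhibitor Socs1 had 0.54 (SE 0.10, adjusted p = 0.141, edgeR) with all 6 tumors.

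Of 10 genes for peptide generation and invariant chain cleavage in endosomes, 0 passed with all 6 tumors and 4 had an unadjusted p under 0.05. Without IFN-γ tumor 3, 4 were called higher, and the median of the list moved from 0.29 to 0.34. Ctss, the cathepsin that makes the late cuts in the invariant chain, was at 437, 554 and 566 CPM in the control tumors and at 943, 1026 and 592 CPM in the IFN-γ tumors. Its log2 fold change was 0.72 (SE 0.20) and, without IFN-γ tumor 3, 0.91 (SE 0.12, adjusted p = 0.011, edgeR). The others were Ctsh at 0.80 (SE 0.12), Ifi30, the thiol reductase of endosomes, at 0.59 (SE 0.12) and the asparaginyl endopeptidase Lgmn at 0.50 (SE 0.08), all without IFN-γ tumor 3. Ctsl, the most abundant gene of the list over all 6 tumors, had a log2 fold change of -0.11 (SE 0.13) and, without IFN-γ tumor 3, of -0.28 (SE 0.08, adjusted p = 0.134, edgeR).

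Of 3 tested genes for class II turnover at the surface, 0 passed with all 6 tumors and 2 were called higher without IFN-γ tumor 3. Marchf1 encodes the ubiquitin ligase that removes class II molecules from the surface, and its log2 fold change was 0.65 (SE 0.26) with all 6 tumors and 0.91 (SE 0.14, adjusted p = 0.016, edgeR) without IFN-γ tumor 3. Cd83, whose product opposes that ligase, had 0.85 (SE 0.20) and 1.01 (SE 0.16, adjusted p = 0.019, edgeR). The related ligase gene Marchf8 had -0.03 (SE 0.07).

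Among 7 genes for partners of Cd74 and readers of class II, 0 passed with all 6 tumors. Cd44, the signaling partner of Cd74 at the surface, was at 575, 554 and 549.8 CPM in the control tumors and at 402, 419 and 458 CPM in the IFN-γ tumors. It lay lower in each IFN-γ tumor than in each control, opposite to Cd74. The log2 fold change was -0.39 (SE 0.08, adjusted p = 0.168, edgeR), and without IFN-γ tumor 3 it was -0.45 (SE 0.07, adjusted p = 0.020, edgeR), where 0.723% of all genes were called lower. Mif, the ligand of Cd74, had 0.20 (SE 0.11) with all 6 tumors and 0.08 (SE 0.09) without IFN-γ tumor 3. Lag3, an inhibitory receptor for class II on T cells, had 0.54 (SE 0.28) and 0.77 (SE 0.21, adjusted p = 0.095, edgeR).

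MHC class I genes, which most cells express, gave a comparison with the members. With all 6 tumors 0 of the 9 class I pathway genes passed the threshold, 7 had an unadjusted p under 0.05, and the median log2 fold change was 0.46 against 1.07 for the members. Without IFN-γ tumor 3, 8 of the 9 were called higher with a median of 0.67 against 1.26, and the exception was Nlrc5, the class I coactivator, at 0.52 (SE 0.18, adjusted p = 0.178, edgeR). H2-K1, a class I heavy chain gene, had 0.35 (SE 0.12) with all 6 tumors. The summed members over the summed class I genes were 0.155, 0.277 and 0.240 in the control tumors and 0.377, 0.402 and 0.261 in the IFN-γ tumors. These ranges overlapped, with a log2 difference of 0.65 (p = 0.2, exact permutation test).

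Since the members mark antigen-presenting cells, their levels were set beside markers of the cell types a tumor can hold. The 8 macrophage markers summed to 1509 to 1645 CPM in the control tumors and to 2181 CPM in the highest and 1529 CPM in the lowest IFN-γ tumor, which was tumor 3. With all 6 tumors 0 of them passed the threshold, and without IFN-γ tumor 3, 4 were called higher, which were Adgre1, C1qa, Cd68 and Fcgr1. The complement gene C1qa, the most abundant, had a log2 fold change of 0.55 with all 6 tumors and 0.68 without IFN-γ tumor 3. Mrc1, another macrophage gene, was at 391 to 433 CPM in the control tumors and at 322 to 369 CPM in the IFN-γ tumors.

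The 8 dendritic cell markers, Itgax, Xcr1 and Zbtb46 the most abundant, summed to 37.4 to 55.4 CPM in the control tumors and 41.8 to 75.7 CPM in the IFN-γ tumors, with 0 calls in either fit. Within this list Xcr1 and Clec9a, genes of conventional type 1 dendritic cells, had log2 fold changes of 1.02 (SE 0.34) and 0.92 (SE 0.36) with all 6 tumors. Without IFN-γ tumor 3 they were at 1.25 (SE 0.29, adjusted p = 0.057, edgeR) and 1.12 (SE 0.34, adjusted p = 0.135, edgeR). Zbtb46 and Cd209a had -0.17 (SE 0.18) and -0.40 (SE 0.46) with all 6 tumors. The 4 monocyte markers summed to 257 to 362 and 287 to 607 CPM, and Ccr2 was called higher without IFN-γ tumor 3. The 8 B cell markers summed to 9.25 to 16.2 CPM in the control tumors and 7.17 to 9.96 CPM in the IFN-γ tumors, with 0 calls. Ms4a1, which encodes the B cell surface protein CD20, had 3 to 40 counts per tumor. T cell markers summed to 42.6 to 65.0 and 34.2 to 100.3 CPM, and those of plasmacytoid dendritic cells to 8.63 to 18.3 and 7.24 to 18.9 CPM. In IFN-γ tumor 3 the sums of the macrophage, dendritic cell, monocyte, B cell and T cell markers were each the lowest of the IFN-γ group. Each was also below its control mean. The B cell and T cell sums of this tumor were below every control. Its macrophage and dendritic cell sums were above control tumor 1, and its monocyte sum of 287 CPM was above control tumors 1 and 2 (257 and 271 CPM). The summed members of this tumor, at 1453 CPM, were above every control, the nearest being control tumor 2 at 1409 CPM.

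Of the remaining marker lists, fibroblast markers summed to 1376 to 2677 CPM in the control tumors and 1431 to 2655 CPM in the IFN-γ tumors. Endothelial markers summed to 236 to 295 and 185 to 239 CPM, plasma cell markers to 44.5 to 46.9 and 40.8 to 47.9 CPM, and skin and muscle markers to 80.2 to 453 and 143 to 225 CPM. Adipocyte markers summed to 102 to 144 and 143 to 195 CPM, mostly counts of Fabp4, which had a log2 fold change of 0.23 (SE 0.15). The other 5, Adipoq, Cfd, Cidec, Lep and Plin1, were higher in every IFN-γ tumor than in every control, as were 7.62% of all genes tested. The log2 fold changes of these 5 ran from 2.05 (SE 0.33) for Cfd to 3.30 (SE 0.61) for Lep, which had 1 to 4 counts per control tumor. With all 6 tumors 0 of the 6 passed the threshold in edgeR and 5 had an unadjusted p under 0.05, and without IFN-γ tumor 3, 4 were called higher. Their median log2 fold change of 2.17 was above the 1.07 of the members. Lymph node markers, nearly all of them counts of Cxcl13, summed to 11.1 to 32.2 CPM in the control tumors and 2.97 to 13.8 CPM in the IFN-γ tumors. Colon epithelium markers summed to 13.1 to 22.9 and 9.58 to 12.7 CPM. The part of any of these cells in the level of the members was not tested.

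Relative to some of the marker lists, but not to the monocyte markers, the members were higher in every IFN-γ tumor than in every control. The summed members over the summed macrophage, dendritic cell and B cell markers were 0.445, 0.821 and 0.755 in the control tumors and 1.21, 1.31 and 0.921 in the IFN-γ tumors. Each IFN-γ tumor was above each control, with a log2 difference of 0.80 (p = 0.1, exact permutation test, the smallest it can give). Macrophage markers made up most of this denominator, with a control mean of 1580 CPM against 48.8 for dendritic cell and 12.1 for B cell markers. Dendritic and B cell markers thus weighed little in this ratio. Over the dendritic cell markers alone the ratio was 18.5, 25.4 and 23.3 in the control tumors and 36.7, 39.3 and 34.8 in the IFN-γ tumors. On this scale IFN-γ tumor 3 lay with the other IFN-γ tumors, with a log2 difference between the groups of 0.73 (p = 0.1, exact permutation test). Over the monocyte markers, a ratio added after the data had been seen, the values were 2.69, 5.19 and 3.45 in the control tumors and 4.86, 4.91 and 5.06 in the IFN-γ tumors. These groups overlapped, and control tumor 2 was above every IFN-γ tumor. The log2 difference was 0.44 (p = 0.4, exact permutation test).

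**Figure D5:**
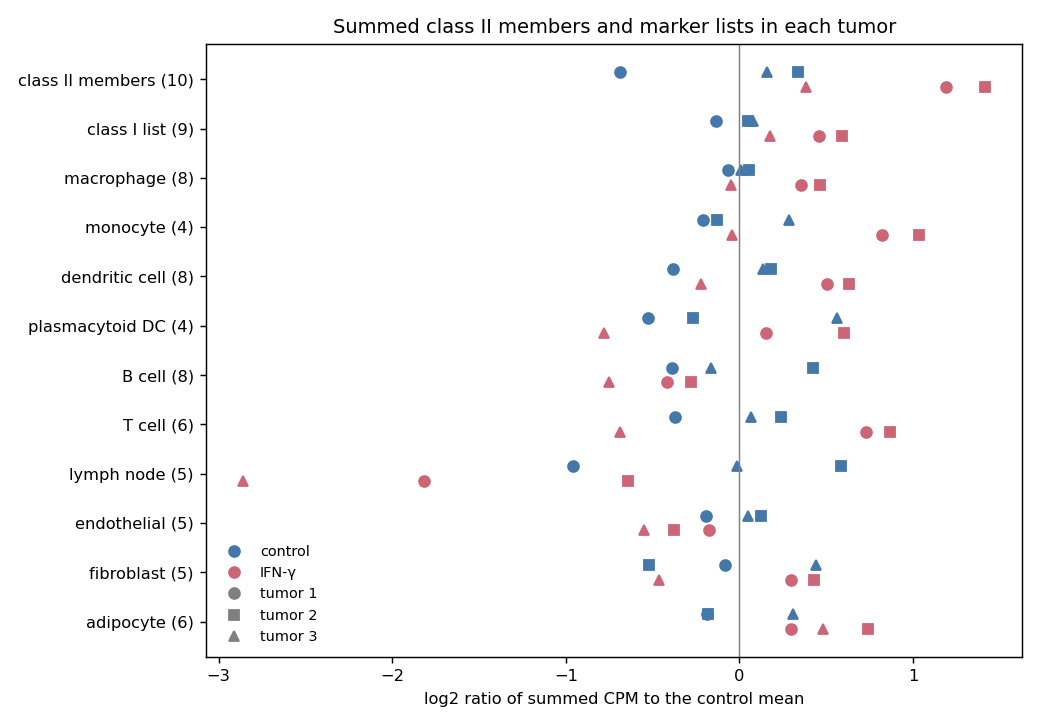
Log2 ratio of the summed CPM to its control mean in each tumor (x axis), for the members, the class I list and the marker lists, with the number of genes in brackets (y axis). The members of IFN-γ tumors 1 and 2 stand at 1.19 and 1.42, their monocyte markers at 0.82 and 1.03, their T cell markers at 0.73 and 0.86 and their macrophage markers at 0.36 and 0.47.

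Over the 6 tumors, the correlation of each member's log2 CPM with the mean of the others was described, with the group difference and the depth shared by all points. Pearson's r was 0.996 for H2-Ab1, 0.995 for H2-Aa, 0.988 for H2-DMa, 0.984 for Cd74, 0.980 for H2-Eb1, 0.970 for H2-DMb1 and 0.936 for Ciita. It was lower for H2-DMb2 at 0.722, H2-Ob at 0.688 and H2-Oa at 0.602. Among the 11323 genes with a mean of at least 5 CPM, members aside, the pattern most like the mean of the members was that of Cnr2, the cannabinoid receptor of immune cells, with r of 0.999 over 6 tumors. Cnr2 was at 3.38, 4.45 and 4.46 CPM in the control tumors and at 6.85, 7.51 and 4.89 CPM in the IFN-γ tumors, so its tumors stood in the order of the members' mean. Igsf8 followed with r of 0.995, and Ctsh, the Fc receptor gene Fcgr4 and the phagocyte oxidase gene Ncf1 each with r of 0.993. These values describe 6 tumors and carry no test.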

How the data were processed

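RNA-seq libraries came from 6 CT26.WT tumors. The deposited values are raw counts of reads on each gene, which the authors had not normalized. The submitters' processing notes name HISAT2 and mm10, and the counting program, strand setting and annotation release are not given in the sources used here. Totals were 15759300 to 17559680 counts per tumor. CPM values were computed with TMM factors. All 6 tumors were tested with edgeR 4.0.16 (R 4.3.3), by its quasi-likelihood test after filterByExpr at default settings, with Benjamini-Hochberg adjustment over all genes tested and a threshold of 0.05. The standard error was the log2 fold change divided by the square root of F. DESeq2 1.42.0, limma 3.58.1 (voom), other filters and scalings, a replicate block and fits without each tumor were alternatives. Ratios by tumor were compared by exact permutation tests (SciPy 1.17.1), two-sided. Exon lengths and coordinates were from GENCODE M21 (GRCm38), which holds 99.4% of the table's identifiers. The scripts were tested on simulated counts. No pair of libraries agreed within sampling noise (smallest chi-square per gene 6.17).

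The members and the gene lists were chosen with earlier results of these data known. Named were all members, and genes of the pathway lists past the threshold with or without IFN-γ tumor 3 or otherwise the most abundant of a list. Some of the markers and the 5 genes most like the members were also named. The most abundant markers of a list are not all among them. Rfx5, Socs1, Marchf8, Mif, Lag3, Nlrc5, Clec9a, Cd209a, the adipocyte genes, Ms4a1, Krt5 and some colon markers were added once their values had been seen. The values of some listed genes are not reported here.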

Additional observations from a re-analysis of the deposited data

How the results depend on the processing

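The log2 fold change of each member stayed above 0 in all 139 comparisons of a member under an alternative, and 16 of them passed the threshold where the fit of all 6 tumors did not. H2-Ob was the least settled, at 0.00053 without IFN-γ tumor 1 and 0.77 without control tumor 2. The number of members past the threshold, 0 with all 6 tumors in edgeR, was 7 with no filter on low counts, 1 in DESeq2 and 0 to 8 when 1 tumor was left out, where 8 was without IFN-γ tumor 3. The adjusted p of H2-Oa in DESeq2 was not given by the tool. Genes of the pathway lists other than class I past the threshold, also 0, numbered 7 with no filter and 7 in DESeq2. They numbered 0 to 11 when 1 tumor was left out, where 11 was without IFN-γ tumor 3 and included Cd44, which was lower. The 8 class I genes called in that fit are not in this count. Over all genes, 12 were higher and 5 lower. These counts were 150 and 70 with no filter, 125 and 71 in DESeq2, and 4 to 381 and 2 to 112 when 1 tumor was left out, with 381 and 112 without IFN-γ tumor 3. Library size alone gave 7 higher, a mean CPM of at least 1 gave 3 lower and limma-voom 3 lower. With the replicate number as a block, 5 were higher and 2 lower, and no call on a member changed. The replicate numbers gave no visible pairing of the tumors, with correlations of the deviations of same-numbered tumors of -0.24, -0.0047 and -0.22. Deviations are taken from the group mean, so these correlations are not independent and cannot exclude a pairing. When 1 tumor was left out, the log2 difference in H2-Oa plus H2-Ob over the DM genes ran from -0.41 to 0.041, with the latter without IFN-γ tumor 2, and was -0.066 without control tumor 2. That in the members over macrophage, dendritic cell and B cell markers ran from 0.53, without control tumor 1, to 0.97, and was 0.44 with monocyte markers in their place, an alternative chosen after seeing the data. That in H2-Aa over H2-Ab1 ran from -0.18 to -0.085 and that in Cd74 over the classical chains from -0.016 to 0.034. The cause of these differences was not tested. Depth limits H2-Oa and H2-Ob, with 9 to 52 counts per tumor.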
